A study of Rattus norvegicus with 10 samples.

Results

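The 75 genes whose symbol starts with Kcn, which encode potassium channel pore-forming subunits and some of their auxiliary subunits, were taken from the platform annotation out of 14217 genes named by a single symbol, and were measured in the left ventricle of rats with and without activation of the stress kinase p38. They carried 126 probe sets, where 44 genes had 1 and 31 had several, up to 6. The brightest probe set stood for each gene, by mean log2(signal + 16) of the deposited signals over the 10 arrays. A mean of at least 6 was reached by 29 genes, and 46 were dimmer. Just inside that threshold lay Kcna6 (6.02) and Kcnv2 (6.07), and just outside it lay Kcnd1 and Kcnt1 (both 5.91).

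One group of 5 samples came from ventricles 3 days after transfer of MKK3bE, an always-active version of a kinase that phosphorylates p38, together with wild-type p38α (called p38 here). The control group of 5 had received the bacterial LacZ gene, so both groups had undergone gene transfer. The rats weighed 250 to 300 g, 9 of the 10 samples were labelled as male Sprague-Dawley rats, and the labels used here give neither their age nor the vector and promoter that drove the genes. There was 1 Affymetrix array per sample. Whether the 10 samples came from separate animals is not stated, so the spread behind each p-value is that of these samples and may be technical.

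Potassium channels let potassium ions leave the cell, which repolarizes the cardiac action potential and holds the resting potential. Voltage-gated channels carry the transient outward and delayed rectifier currents, inward rectifiers set the resting potential or answer to G proteins and ATP, tandem-pore channels leak, and calcium-activated channels couple calcium to membrane potential. In the rat ventricle the transient outward current is the main early repolarizing current.

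In p38 ventricles 7 Kcn genes fell and 1 rose. The genes that fell were Kcnj3 and Kcnj5, the subunits of the acetylcholine-gated channel, Kcnj11, the pore of the ATP-sensitive channel, Kcnip2 and Kcnd2, subunits of the transient outward channel, Kcnh2, the pore of the rapid delayed rectifier, and Kcnk3, an acid-sensitive leak channel. Their falls ranged from 0.42 to 0.77 on the log2 scale. Kcnn4, the intermediate-conductance calcium-activated channel known from leukocytes and proliferating cells, rose. These are calls of limma's moderated test over 18625 probe sets, with Benjamini-Hochberg adjusted p under 0.05 and 5 arrays per group. Errors of log2 fold changes are its standard errors, and levels are quantile-normalized log2(signal + 16), a scale that understates changes of dim genes. All LacZ values of Kcnn4 lay below the brightness limit of the test, given below, so this gene entered through its p38 arrays. Its rise is therefore a description and does not stand on a par with the 7 falls. With values below the limit set to it, the group means of Kcnn4 differed 2.32-fold.

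Of the 75 genes, 32 were bright enough to be tested, their mean level over all arrays lying above a limit of 5.797. Of these, 7 (21.9%) were lower in p38, beside 6.22% of all 10596 tested named genes, and 1 (3.12%) was higher, beside 11.6%. In both directions together, 17.8% of named genes passed. The median log2 fold change of the 32 was -0.20, beside 0.00 over all tested named genes, with 22 values below 0 and 10 above. The groups did not overlap for 4 genes with lower p38 values (Kcnj3, Kcnip2, Kcnj11 and Kcnab1, which did not pass) and for 1 with higher ones (Kcnn4), where 4.74% and 7.40% of all tested named genes lay apart in those directions. Kcnab1 entered the test through its LacZ arrays, its p38 mean of 5.69 lying below the limit, and Kcnn4 through its p38 arrays. By subfamily, 2 of 13 voltage-gated pore subunits fell, 1 of 6 auxiliary subunits, 3 of 6 inward rectifiers and 1 of 4 tandem-pore channels, and 1 of 3 calcium- or sodium-activated members rose.

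The count of falls depended on normalization between arrays and on single arrays. With unnormalized signals, for which the median difference of all tested probe sets moved from -0.03 to 0.11, Kcnj3 was the 1 gene still called lower and Kcnn4 the 1 called higher. There 5.13% of all tested probe sets were higher and 0.467% lower, beside 8.60% and 7.40% after quantile normalization. Without LacZ 1, p38 4 or p38 5 the falls numbered 2 in each case, without LacZ 3 they numbered 3, and without LacZ 2 or p38 2 they numbered 4. The share of all tested probe sets called lower was smaller in these fits too, at 2.88% to 4.12%. The number of rises was 3 without LacZ 5 and 3 without p38 1, with 8.12% and 12.4% of all tested probe sets higher. Of the 7 genes that fell, Kcnj3 and Kcnip2 passed with each of the 10 arrays left out in turn.

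**Figure D1:**
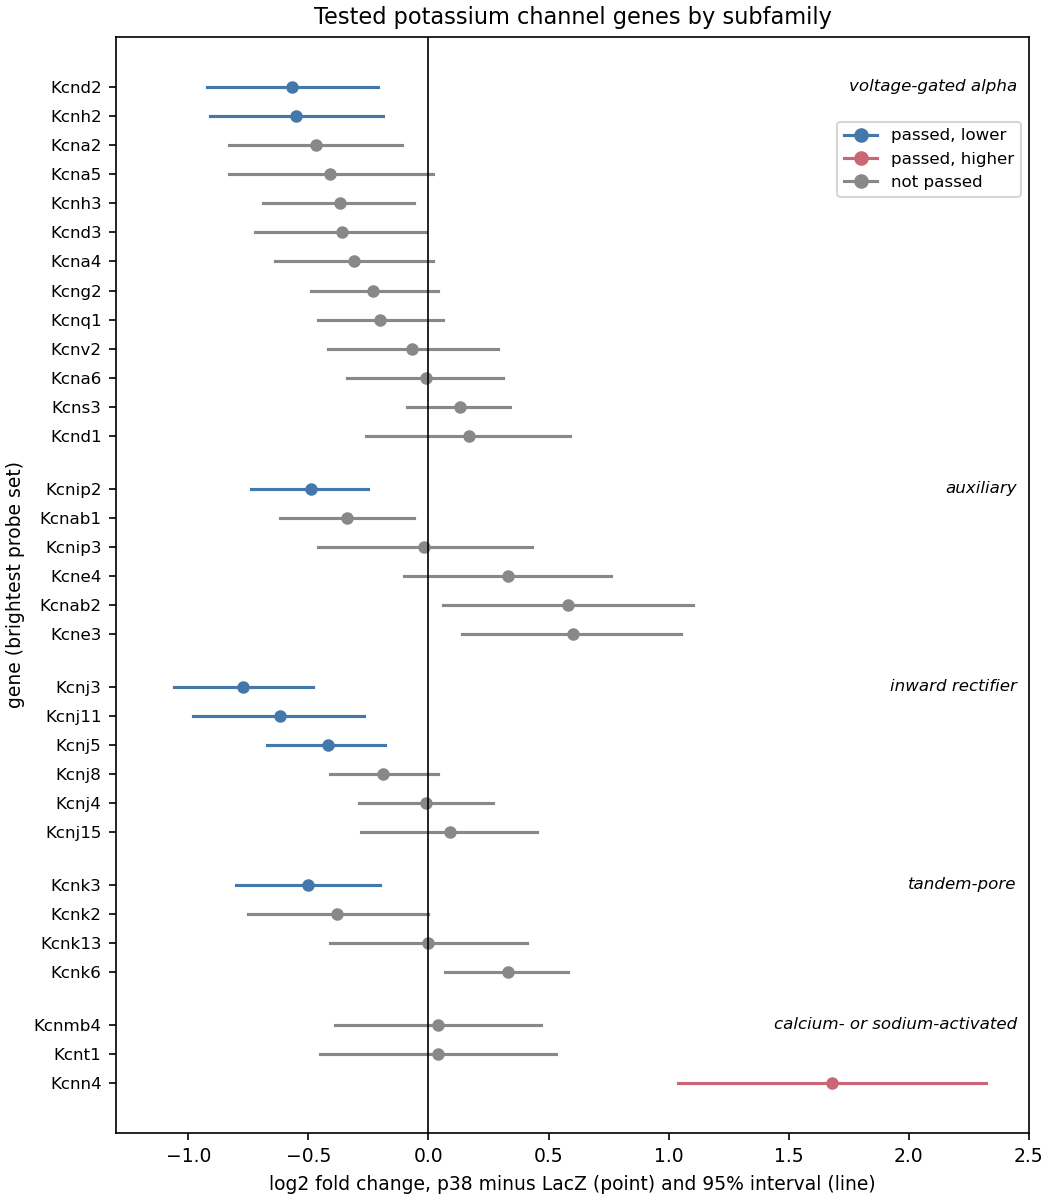
Log2 fold change of p38 over LacZ (point, horizontal axis) with its 95% interval (line) for the 32 tested Kcn genes, 5 arrays per group, ordered within subfamilies. The 7 genes that fell lie between -0.77 and -0.42, and Kcnn4 stands apart at 1.68.

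The p38 arrays differed among themselves. For 6 of the 7 genes that fell, p38 4 and p38 5 were the lowest pair of the 10 arrays, and for all 7 the highest p38 value was that of p38 1 or p38 3. On p38 2, p38 4 and p38 5 all 7 genes lay below every LacZ array, and 4 of the 7 did so on p38 1 and also on p38 3. The experiment files record a fluidics status of Completed for LacZ 1 to 4, p38 4 and p38 5, and of Started for LacZ 5 and p38 1 to 3. Within Completed arrays 13 Kcn genes were lower (19.5% of all tested probe sets were) and 5 higher (16.6%). Those counts rest on p38 4 and p38 5 as the only p38 arrays, the lowest pair for 6 of the 7 genes that fell. Started arrays include a single LacZ array, against which limma called almost nothing (0.0161% of all tested probe sets lower and 0.0107% higher), so the absence of Kcn calls there says nothing about these genes. Between the p38 and LacZ means, the 7 genes were lower within each status, by 0.57 to 1.10 in Completed and by 0.23 to 0.43 in Started. The 7 genes were called on these same arrays and the Started values rest on LacZ 5 alone, so these differences are a description only. With status as a factor in the fit 10 were lower and 2 higher, beside 10.5% and 10.4% of all tested probe sets. With the fluidics module as a factor 3 were lower (Kcnip2, Kcnj11 and Kcnj3), beside 5.55%.

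All 7 cardiomyocyte markers were bright, and 2 of them (Actn2 and Ryr2, both by 0.26) fell. These were the least bright, with LacZ means of 13.40 and 13.08, beside 13.66 to 13.82 for the others. Whether signals as bright as the others can still show a change was not tested. The mean level of the 7 markers ran from 13.58 to 13.61 on LacZ arrays and from 13.45 to 13.57 on p38 arrays. The 3 atrial markers averaged 6.28 to 6.84 on LacZ arrays and 6.34 to 6.85 on p38 2 to 5, but 8.33 on p38 1. Of 7 macrophage markers 5 rose, with means of 8.83 to 9.42 on LacZ and 9.14 to 10.14 on p38 arrays. Of the 6 smooth muscle and pericyte markers 2 rose and 1 fell (8.52 to 8.80, and 8.73 to 9.40), of 4 endothelial ones 1 fell (10.07 to 10.25, and 9.89 to 10.13) and of 4 fibroblast ones none passed (12.08 to 12.49, and 11.99 to 12.52). Of 5 T cell markers 3 were tested (mean level of the 5 at 5.59 to 5.84, and 5.63 to 6.40). Cd8a rose, from a LacZ mean of 5.78 below the limit, so that it entered the test through its p38 arrays. Among the defining CD3 genes, Cd3e and Cd3d had means below the limit, while Cd3g read 6.03 to 6.75 and did not pass (0.16 ± 0.14). Fewer cells of a type and less RNA per cell cannot be told apart in such tissue, and the part of these markers in the results below was not tested.

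The fast transient outward channel consists of pore subunits encoded by Kcnd2 and Kcnd3 and the calcium-binding auxiliary subunit encoded by Kcnip2, which brings the pore to the cell surface. Kcnip2 measured 12.35, 12.42, 12.34, 12.32 and 12.28 on LacZ 1 to 5 and 12.15, 11.86, 12.11, 11.43 and 11.69 on p38 1 to 5. The LacZ arrays lay within a narrow band and each p38 array lay below all of them, with p38 4 lowest. The fall was 0.49 ± 0.11 on the log2 scale (95% interval -0.74 to -0.25, adjusted p = 0.0163), or 1.41-fold. Its second probe set also fell, by 0.86 ± 0.26 (adjusted p = 0.0393), and its dimmest was not tested. The call held with each array left out (adjusted p up to 0.0451), but not with unnormalized signals (-0.38, adjusted p = 0.0659) or when all its probe sets were averaged (-0.36, adjusted p = 0.0949).

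Kcnd2 measured 7.76, 7.42, 8.02, 7.88 and 7.74 on LacZ 1 to 5 and 7.53, 7.21, 7.55, 6.93 and 6.76 on p38 1 to 5. The groups overlapped, since LacZ 2 lay below p38 1 and p38 3, while the other 3 p38 arrays lay below all LacZ arrays. Kcnd2 fell by 0.57 ± 0.17 (95% interval -0.92 to -0.21, adjusted p = 0.0370). Omitting any of LacZ 1, 3, 4 and 5 or of p38 2, 4 and 5 ended the call (adjusted p 0.0546 to 0.0965). So did the module as a factor (0.0562), unnormalized signals (0.123), testing all probe sets (0.0658) and averaging its own (0.0784). A second, dimmer probe set of Kcnd2 did not pass (-0.31 ± 0.19, adjusted p = 0.277).

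Kcnd3 gave unlike answers at its probe sets. The brightest measured 7.24, 7.49, 7.66, 7.93 and 7.77 on LacZ 1 to 5 and 7.64, 7.45, 7.28, 6.85 and 7.04 on p38 1 to 5, with LacZ 1 and LacZ 2 inside the p38 range. It did not pass (-0.36 ± 0.16, adjusted p = 0.142), although it did with status as a factor. The next probe set, with LacZ values of 6.73 to 7.34 and p38 values of 6.01 to 6.52, did not overlap between groups and passed at -0.80 ± 0.14 (adjusted p = 0.00818). The dimmest one was not tested.

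**Figure D2:**
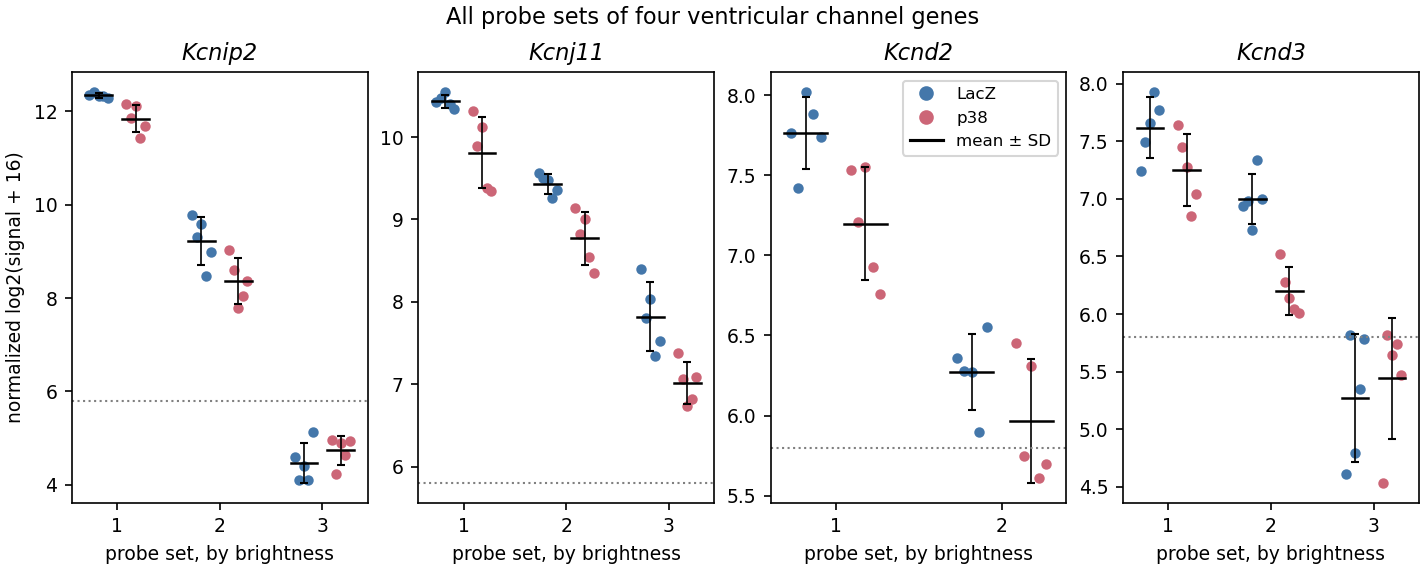
Normalized log2(signal + 16) (vertical axis) of every probe set of Kcnip2, Kcnj11, Kcnd2 and Kcnd3, ordered by brightness on the horizontal axis. Points are arrays, 5 LacZ and 5 p38 at each probe set, bars are the mean ± SD, and the dotted line is the brightness limit of 5.797. The p38 means lie lower at all 3 probe sets of Kcnj11 and at the brighter pair of Kcnip2 and of Kcnd3, and both group means of the dimmest probe sets of Kcnip2 and Kcnd3 lie below the limit.

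The Shaker-family pores of the ventricle did not pass. Kcna4, the pore of the slow transient outward channel, measured 6.33, 6.76, 6.19, 6.46 and 6.52 on LacZ 1 to 5 and 6.52, 6.15, 6.18, 5.83 and 6.04 on p38 1 to 5, and 4 of the 5 p38 arrays lay below all LacZ arrays (-0.31 ± 0.15, adjusted p = 0.178). Kcna5, the ultrarapid delayed rectifier, measured 7.45, 7.20, 6.41, 7.18 and 6.89 on LacZ 1 to 5 and 6.70, 7.13, 6.33, 6.52 and 6.42 on p38 1 to 5, with overlapping groups (-0.41 ± 0.20, adjusted p = 0.170). Kcna2, a delayed rectifier pore, had the smallest p of the voltage-gated pores that did not pass.

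Kcna2 measured 8.67, 8.43, 9.01, 8.46 and 8.33 on LacZ 1 to 5 and 8.40, 8.18, 8.43, 7.64 and 7.87 on p38 1 to 5. Its groups overlapped at p38 1 and p38 3, and the difference was -0.47 ± 0.17 (adjusted p = 0.0689). Of 10 fits with an array left out it passed in 2, those without p38 1 or p38 3 (adjusted p = 0.0389 at most). Of 14 other settings on the 10 arrays it passed in 3. These were status as a factor (0.0426), array weights (0.0350) and the replicate number as a block (0.0211). Averaged probe sets of Kcna2 did not pass (-0.34, adjusted p = 0.164), nor did its second, dimmer probe set (-0.20 ± 0.22, adjusted p = 0.539). Kcng2, a silent subunit that modifies other voltage-gated pores, differed by -0.23 ± 0.12 (adjusted p = 0.212), and Kcnh3 by -0.37 ± 0.15 (adjusted p = 0.0932). The remaining tested pore subunits, Kcna6, Kcnd1, Kcns3 and Kcnv2, had differences of -0.07 to 0.17.

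The delayed rectifiers that end the action potential in larger mammals were both measured. Kcnh2 measured 7.58, 7.39, 7.73, 7.09 and 7.29 on LacZ 1 to 5 and 7.11, 6.84, 7.23, 6.37 and 6.79 on p38 1 to 5. Apart from p38 1 and p38 3, which lay within the LacZ range, the p38 arrays were below all LacZ arrays. Kcnh2 fell by 0.55 ± 0.17 (95% interval -0.91 to -0.19, adjusted p = 0.0431), the call closest to the threshold. Omitting any of LacZ 1, 2, 3 and 5 or of p38 2, 4 and 5 ended it (adjusted p 0.0532 to 0.107), as did median centring (0.0527), a fit with no variance trend (0.0519), testing all probe sets (0.0785), the module as a factor (0.0635) and unnormalized signals (0.171). Kcnq1, the pore of the slow delayed rectifier, measured 8.79, 8.64, 8.66, 8.73 and 8.81 on LacZ 1 to 5 and 8.72, 8.49, 8.86, 8.34 and 8.20 on p38 1 to 5, where p38 3 was the highest of all arrays (-0.20 ± 0.12, adjusted p = 0.254). Its partner Kcne1 was too dim to be tested, at 4.22, 5.27, 5.04, 5.01 and 5.25 on LacZ 1 to 5 and 5.07, 4.97, 4.62, 5.78 and 5.61 on p38 1 to 5.

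Sequence before the annotated start was on hand for 52 of the 75 genes (RefSeq, GRCr8 assembly), and for 3 of the 8 genes that passed, namely Kcnip2, Kcnd2 and Kcnj5, which is described below. In the sequences below, capitals mark matches to the motifs listed after them. The 250 bases before each start are shown for these 3 genes, in lower case from 5′ to 3′ on the gene's strand. They lie at chr1:254613899-254614148 on the minus strand for Kcnip2, at chr4:50742235-50742484 on the plus strand for Kcnd2 and at chr8:39011097-39011346 on the minus strand for Kcnj5.
Kcnip2 promoter: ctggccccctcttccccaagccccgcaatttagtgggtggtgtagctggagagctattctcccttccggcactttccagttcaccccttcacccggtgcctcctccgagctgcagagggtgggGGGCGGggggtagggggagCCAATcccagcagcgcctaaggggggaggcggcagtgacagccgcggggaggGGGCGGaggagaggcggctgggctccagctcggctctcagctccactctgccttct
Kcnd2 promoter: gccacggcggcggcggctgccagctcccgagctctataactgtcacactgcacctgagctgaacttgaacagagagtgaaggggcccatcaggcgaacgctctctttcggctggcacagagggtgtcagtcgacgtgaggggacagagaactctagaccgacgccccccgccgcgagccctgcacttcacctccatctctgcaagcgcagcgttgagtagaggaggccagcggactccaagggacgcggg
Kcnj5 promoter: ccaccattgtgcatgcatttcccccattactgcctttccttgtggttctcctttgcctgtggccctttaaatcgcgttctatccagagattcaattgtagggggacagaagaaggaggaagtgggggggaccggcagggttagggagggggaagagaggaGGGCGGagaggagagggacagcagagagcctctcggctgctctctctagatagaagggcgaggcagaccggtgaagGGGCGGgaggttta
Both strands were searched for 7 motifs whose letters do not contain one another, and their background is the share of all 33469 windows of the same length that hold each. The binding site of Sp-family proteins, GGGCGG, was found in 30.5% of windows, and in Kcnip2 starting at -127 and at -56 and in Kcnj5 at -90 and at -14. The nuclear factor Y site, with the letters CCAAT, was found in 34.0% of all windows and in Kcnip2 at -108. Nothing was found in these 3 promoters for the site of the TATA-binding protein, spelled TATAAA, which 12.9% of windows held. The same was so for the site of TEAD proteins with the letters CATTCC (12.1% of windows), for a site of the GATA family spelled AGATAA (10.3%), for the AP-1 site, read as TGA, any base and TCA (6.34%), and for the cyclic AMP response element TGACGTCA (1.59%). The G and C content was 68.0% for Kcnip2, 64% for Kcnd2 and 57.2% for Kcnj5, beside a median of 51.2% over all windows.

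Among inward rectifiers, Kcnj3 and Kcnj5 form the channel opened by acetylcholine through G proteins, best known from the atrium and sinus node. Kcnj3 measured 7.96, 8.01, 7.68, 7.95 and 7.54 on LacZ 1 to 5 and 7.03, 7.10, 7.43, 6.87 and 6.85 on p38 1 to 5. All p38 arrays lay below all LacZ arrays, LacZ 5 being the lowest control. The fall of 0.77 ± 0.13 (95% interval -1.06 to -0.48, 1.71-fold, adjusted p = 0.00802) was the largest among the brightest probe sets of the family. Dimmer probe sets of Kcnip2, Kcnd3 and Kcnj11 fell by more. Kcnj3 passed in every setting run on the 10 arrays, from -0.85 to -0.44, the smallest value being that of its averaged probe sets. The dimmer 2 probe sets of Kcnj3, taken alone, did not pass (-0.32 ± 0.16 and -0.23 ± 0.26).

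Kcnj5 measured 8.78, 8.62, 8.56, 8.57 and 8.78 on LacZ 1 to 5 and 8.57, 8.32, 8.18, 8.14 and 7.97 on p38 1 to 5. On p38 1 it was as high as on the lower LacZ arrays, and the other 4 p38 arrays lay below all of them. It fell by 0.42 ± 0.11 (95% interval -0.67 to -0.18, adjusted p = 0.0257). Omitting any of LacZ 1 and 2 or of p38 4 and 5 ended the call (adjusted p 0.0513 to 0.0659), as did the module as a factor (0.0632), averaged probe sets (0.0530) and unnormalized signals (0.292). The atrial markers, high on p38 1, averaged 6.34 to 6.85 on the other p38 arrays, beside 6.28 to 6.84 on LacZ arrays. Without p38 1, Kcnj3 and Kcnj5 both passed, but the part of atrial tissue in these falls was not tested.

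**Figure D3:**
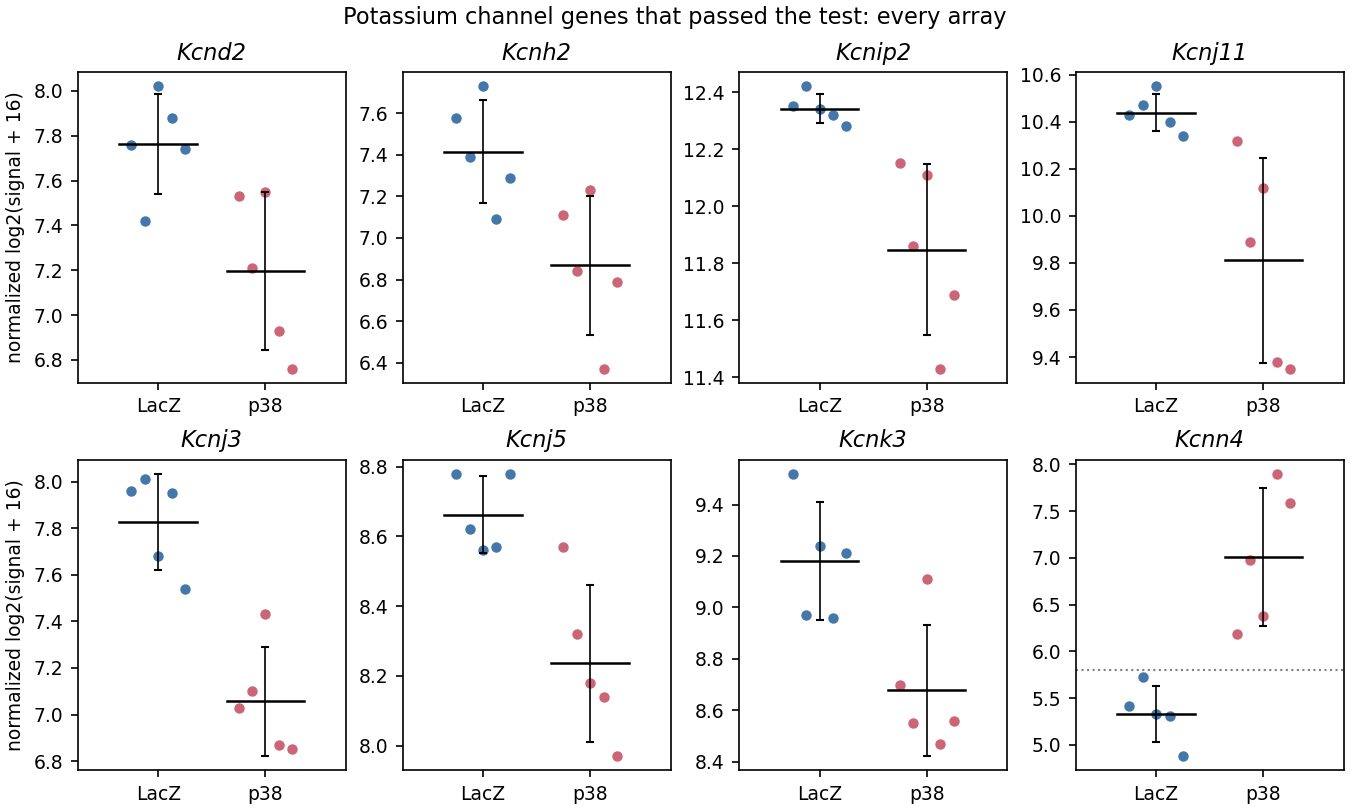
Normalized log2(signal + 16) (vertical axis, its range set for each gene) of the 8 Kcn genes that passed, with the 5 LacZ and 5 p38 arrays as points and the mean ± SD as bars. The groups do not overlap for Kcnip2, Kcnj11, Kcnj3 and Kcnn4, and all LacZ points of Kcnn4 lie below the dotted brightness limit.

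ATP-sensitive channels, which open when cellular ATP falls, combine a pore encoded by Kcnj11 in cardiac muscle or Kcnj8 in vascular muscle with a sulfonylurea receptor encoded by Abcc8 or Abcc9. Kcnj11 measured 10.43, 10.47, 10.55, 10.40 and 10.34 on LacZ 1 to 5 and 10.32, 9.89, 10.12, 9.38 and 9.35 on p38 1 to 5. The groups did not overlap, although p38 1 lay just under LacZ 5, and p38 4 and p38 5 were lowest. Kcnj11 fell by 0.62 ± 0.17 (95% interval -0.98 to -0.27, 1.54-fold, adjusted p = 0.0262). Its other probe sets fell as well, by 0.66 ± 0.14 (adjusted p = 0.0127) and 0.80 ± 0.19 (adjusted p = 0.0168). At the brightest one, omitting any of LacZ 1 to 3 or of p38 4 and 5 ended the call (adjusted p 0.0522 to 0.0666), as did unnormalized signals (-0.45, adjusted p = 0.0721).

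Kcnj8 measured 9.19, 8.89, 9.18, 8.91 and 8.70 on LacZ 1 to 5 and 8.85, 8.76, 8.88, 8.69 and 8.74 on p38 1 to 5. Its groups overlapped, and it did not pass (-0.19 ± 0.10, 95% interval -0.41 to 0.04, adjusted p = 0.225). Both receptor genes fell, Abcc8 by 0.59 ± 0.15 (adjusted p = 0.0201) and Abcc9 by 0.41 ± 0.11 (adjusted p = 0.0307). For Abcc8 all p38 arrays lay below all LacZ arrays, and for Abcc9 4 of the 5 did. Neither call was examined in the other settings or with an array left out.

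**Figure D4:**
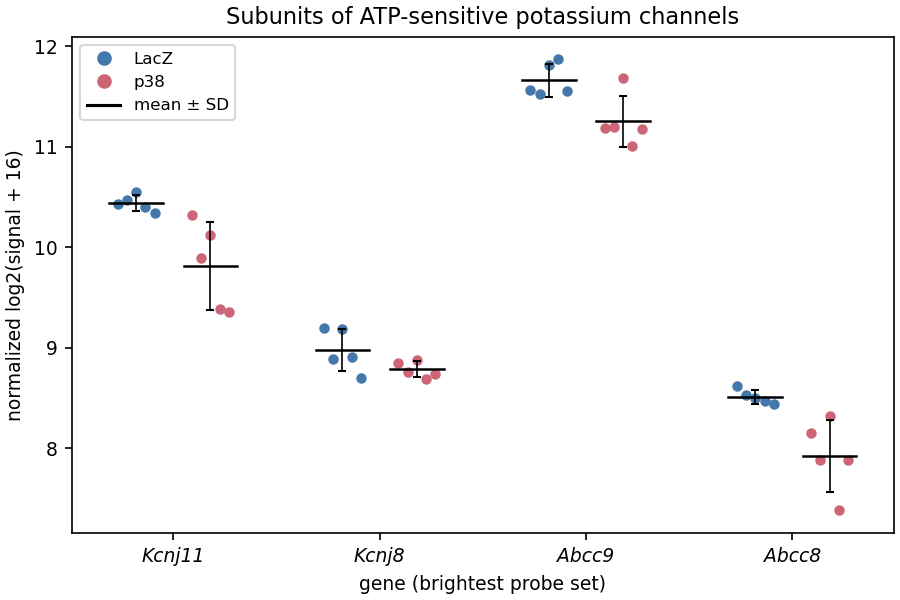
Normalized log2(signal + 16) (vertical axis) of the pore subunits Kcnj11 and Kcnj8 and the receptor subunits Abcc9 and Abcc8 (horizontal axis), with 5 LacZ and 5 p38 arrays as points and the mean ± SD as bars. Kcnj11 and both receptors are lower in p38, while the p38 points of Kcnj8 lie between 8.69 and 8.88, inside or just under the LacZ range. Heights of different genes are not comparable.

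Ratios of subunits within an array were compared between the groups by a two-sided exact permutation test over all 252 splits, whose smallest possible p is 0.00794. The log2 ratio of Kcnj8 over Kcnj11 was -1.46 ± 0.16 (SD, n = 5) in LacZ and -1.03 ± 0.37 in p38, a difference of 0.44 with exact p = 0.0397, or 0.159 after adjustment over the 4 ratios. That of Kcnj5 over Kcnj3 was 0.35 higher in p38 (exact p = 0.0952, adjusted 0.190), Kcnd3 over Kcnd2 0.20 higher (exact p = 0.238, adjusted 0.317) and Kcnip2 over Kcnd2 0.07 higher (exact p = 0.579, adjusted 0.579). None passed after adjustment. Ratios of Kcne1 to Kcnq1 and of Kcnj12 to Kcnj2 were left out because Kcne1, Kcnj12 and Kcnj2 were too dim.

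Strong inward rectifiers hold the resting potential of ventricular cells, but their probe sets were dim. Kcnj2 read 5.63, 5.86, 5.20, 5.26 and 5.77 on LacZ 1 to 5 and 5.39, 5.34, 5.23, 5.02 and 4.63 on p38 1 to 5. Kcnj12 read 5.33, 5.06, 5.19, 5.50 and 5.92 on LacZ 1 to 5 and 5.59, 5.29, 5.53, 5.20 and 5.45 on p38 1 to 5. Apart from LacZ 2 for Kcnj2 and LacZ 5 for Kcnj12, these values lie below the brightness limit, and no fold is given for them. Kcnj4, a further strong rectifier, was tested and differed by -0.01 ± 0.13 (adjusted p = 0.969), and Kcnj15 by 0.09 ± 0.17 (adjusted p = 0.760).

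Tandem-pore channels carry background potassium current. Kcnk3, whose channel closes in acid, measured 9.52, 8.97, 9.24, 8.96 and 9.21 on LacZ 1 to 5 and 8.70, 8.55, 9.11, 8.47 and 8.56 on p38 1 to 5. Except for p38 3, which lay among the controls, p38 arrays were below all LacZ arrays. Kcnk3 fell by 0.50 ± 0.14 (95% interval -0.80 to -0.20, adjusted p = 0.0294), which is 1.42-fold. Omitting any of LacZ 1 and 3 or of p38 2, 4 and 5 ended the call (adjusted p 0.0609 to 0.0782), as did median centring (0.0504), the module as a factor (0.0740), unnormalized signals (0.269) and averaged probe sets (-0.21, adjusted p = 0.394). Its other probe sets were too dim to be tested and differed in sign, -0.63 and 0.50.

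Kcnk2, a channel opened by stretch, measured 8.71, 8.58, 8.69, 8.67 and 8.28 on LacZ 1 to 5 and 8.51, 8.35, 8.65, 7.83 and 7.69 on p38 1 to 5. The p38 4 and p38 5 arrays were lowest and the rest overlapped (-0.38 ± 0.18, adjusted p = 0.152). Within Completed arrays, where p38 4 and p38 5 are the only p38 arrays, the difference was -0.90 (adjusted p = 0.000126), set by the lowest values of this gene. Within Started arrays it was 0.23 against a single control, LacZ 5, the lowest LacZ value of this gene. It passed with averaged probe sets (-0.36, adjusted p = 0.0422). Kcnk6, an endosomal and macrophage channel, measured 7.23, 7.29, 7.19, 7.36 and 7.64 on LacZ 1 to 5 and 7.48, 7.56, 7.63, 7.74 and 7.93 on p38 1 to 5. LacZ 5 lay among the p38 values, and Kcnk6 did not pass (0.33 ± 0.12, adjusted p = 0.0723). Without LacZ 5 or p38 1 it did (adjusted p = 0.0407 at most). Its second tested probe set had the opposite sign (-0.10 ± 0.14), and the average over both was 0.11. Kcnk13 differed by 0.00 ± 0.19, with p38 values from 5.60 to 6.75 around a LacZ range of 6.25 to 6.41.

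Kcnn4 was the gene of the family that rose. Its channel opens with internal calcium and is known from T cells, macrophages, fibroblasts and proliferating vascular smooth muscle, and is low in healthy muscle cells. Kcnn4 measured 5.41, 5.72, 5.33, 5.31 and 4.88 on LacZ 1 to 5 and 6.19, 6.98, 6.38, 7.90 and 7.59 on p38 1 to 5. In deposited units this was 13.8 to 35.2 on LacZ and 48.5 to 249.7 on p38 arrays. All LacZ values lay below the brightness limit and all p38 values above it, so the gene entered the test through the p38 group. The fitted difference was 1.68 ± 0.30 on the log2 scale (95% interval 1.04 to 2.32, adjusted p = 0.00818). With values below the limit set to it, the group means differed 2.32-fold, a figure that takes no account of sampling error. The fitted difference ran from 1.46 to 1.88 with an array left out and from 1.03 to 2.18 over 13 other settings on the 10 arrays, and, since the filter kept the gene through its p38 values, these are given as a description.

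The mean of the macrophage markers moved with Kcnn4 on the p38 arrays. There p38 4 and p38 5 had the highest Kcnn4 values and the highest marker means (10.02 and 10.14), and p38 1 the lowest of both (9.14). Of the 7 markers, Cd163 went the other way (-0.23 ± 0.12, adjusted p = 0.207). Among p38 arrays it was lowest on p38 4 and p38 5 (6.83 and 6.82). Csf1r did not pass (0.44 ± 0.21, adjusted p = 0.155). LacZ 5, at a marker mean of 9.42 above p38 1, had the lowest Kcnn4 value of all arrays, 4.88. Smooth muscle markers were also highest on p38 4 and p38 5 (9.16 and 9.40), but their members differed. Calponin (Cnn1) was 1.91 ± 0.32 higher on the log2 scale (adjusted p = 0.00787) and Tagln 0.54 ± 0.14 higher (adjusted p = 0.0255). The smooth muscle myosin Myh11 was lower (-0.46 ± 0.13, adjusted p = 0.0330), lowest on p38 4 and p38 5 (8.82 and 8.65), and Acta2, Pdgfrb and Rgs5 did not pass (0.39, -0.10 and 0.10). The part of either cell type in the rise of Kcnn4 was not tested.

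**Figure D5:**
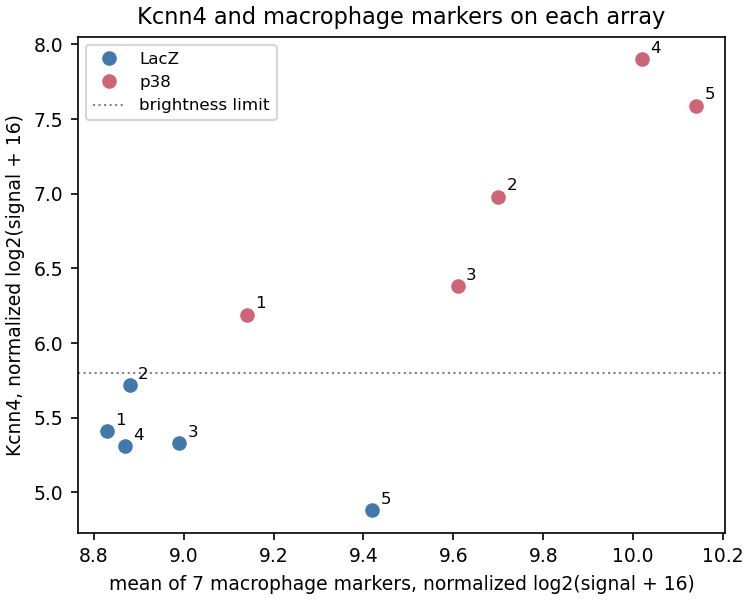
Kcnn4 (vertical axis) against the mean of 7 macrophage markers (horizontal axis), both as normalized log2(signal + 16), with each array as a point labelled by its replicate number. All 5 p38 points lie above the dotted brightness limit and all 5 LacZ points below it, LacZ 5 combining a marker mean of 9.42 with the lowest Kcnn4 value.

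The other calcium- or sodium-activated members did not pass. Kcnmb4, an auxiliary subunit of the large-conductance channel, measured 5.58, 6.46, 5.91, 6.60 and 6.32 on LacZ 1 to 5 and 6.51, 6.41, 5.89, 6.17 and 6.11 on p38 1 to 5, with fully overlapping groups (0.04 ± 0.20, adjusted p = 0.902). Kcnt1 differed by 0.04 ± 0.23. Kcnma1, the pore of the large-conductance channel of smooth muscle, read 5.06, 4.93, 5.09, 4.89 and 5.06 on LacZ 1 to 5 and 4.92, 4.72, 5.43, 4.95 and 4.69 on p38 1 to 5. Its partner Kcnmb1 read 5.08, 4.73, 5.07, 5.55 and 4.64 on LacZ 1 to 5 and 5.01, 5.43, 5.71, 5.61 and 5.79 on p38 1 to 5. Both lay below the limit on every array.

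Auxiliary subunits other than Kcnip2 gave no call. Kcne3, a small subunit that alters gating of several pores, measured 5.80, 5.81, 5.59, 5.44 and 6.67 on LacZ 1 to 5 and 6.64, 6.67, 6.18, 6.42 and 6.38 on p38 1 to 5. LacZ 5 matched the highest p38 values, and the difference of 0.60 ± 0.21 did not pass (adjusted p = 0.0682), although it did without LacZ 5 (adjusted p = 0.0126). With its dimmer probe set averaged in, it was 0.08. Kcnab1, a cytoplasmic subunit of Shaker channels, had p38 values of 5.57 to 5.85 below LacZ values of 5.93 to 6.17 and did not pass (-0.34 ± 0.13, adjusted p = 0.0852). Its p38 mean lay below the brightness limit, and with values below the limit set to it the groups differed by 0.23. A second, dimmer probe set of Kcnab1, not tested, had the opposite sign (0.27). Kcnab2, a relative of Kcnab1, read 7.37 and 7.25 on p38 4 and p38 5, beside 5.82 to 6.49 on LacZ arrays (0.58 ± 0.24, adjusted p = 0.116). Kcne4 (0.33 ± 0.20) and Kcnip3 (-0.02 ± 0.21) did not pass.

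The 43 genes too dim to be tested had values between 4.07 and 7.12 on single arrays, the highest being Kcnq5 on p38 1. A second, dimmer probe set of Kcnq5, singled out after its values were seen and not tested, read 4.43 to 5.25 on LacZ and 5.49 to 6.90 on p38 arrays, with no overlap, while the brightest and the dimmest had differences of -0.20 and -0.55. At their brightest probe sets, tested without the brightness filter, none of the 43 genes passed by limma, 3 had an unadjusted p under 0.05 (Kcne2, Kcnmb1 and Kcnj16), and the smallest adjusted p was 0.141. Their median difference was -0.02, with 21 above 0 and 22 below. Kcnc1, a fast voltage-gated pore best known from neurons, read 4.28, 5.06, 4.75, 4.33 and 4.51 on LacZ 1 to 5 and 4.61, 5.01, 5.33, 4.96 and 4.87 on p38 1 to 5, all below the limit. Kcnn2 was not analysed here.

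Of 33 other genes of ventricular excitability (channel partners, regulators, sodium, calcium and pacemaker channels and the sodium pump), 26 had a probe set here and 20 were tested, of which 5 fell and 1 rose, with a median log2 fold change of -0.20, beside the 6.22%, 11.6% and 0.00 over all tested named genes. Besides Abcc8 and Abcc9, the falls were Cacna1c, the pore of the L-type calcium channel (-0.44 ± 0.10, adjusted p = 0.0162), its subunit Cacnb2 (-0.34 ± 0.10, adjusted p = 0.0376) and the membrane adaptor Ank2 (-0.42 ± 0.10, adjusted p = 0.0163). The sodium channel subunit Scn3b rose (0.58 ± 0.17, adjusted p = 0.0342). For these other genes only the brightest probe set was examined. Whether their calls hold with unnormalized signals, in the other settings or with an array left out was not examined. Irx3 and Irx5, regulators of Kcnd2 in the mouse ventricle, did not pass (0.09 ± 0.16 and -0.12 ± 0.15).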

How the data were processed

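Gene expression in 10 samples of rat left ventricle was measured on Affymetrix short-oligonucleotide arrays, 5 LacZ and 5 p38. The deposited values are intensities on a linear scale, 1 per probe set and array, which the authors made with GCOS 1.2, per the submitters' processing notes. Their scaling is unknown here, and array medians ran from 60.3 to 88.0.

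After removal of 57 control probe sets, log2(signal + 16) was quantile normalized. The dimmest 40% of 31042 probe sets were left out and 18625 tested with limma 3.58.1 in R 4.3.3 (intensity trend, no covariate, two-sided, Benjamini-Hochberg over all of them, threshold 0.05). The number of arrays limits the precision. The steps were tested on simulated data with independent noise for each probe set and array. Differences shared by many probe sets of an array were not simulated. The members, gene lists and tests were chosen with earlier results of these data known. Values on every array are given for Kcn genes that passed, for genes of a fixed cardiac set, tested or too dim,, and for the gene of each subfamily with the smallest p among those that did not pass, and others were named to identify small counts. Cell type marker lists covered cardiomyocytes, atrial myocytes, conduction system, macrophages, T cells, smooth muscle and pericytes, endothelium, fibroblasts, Schwann cells and skeletal muscle. Lists of 3 conduction, 2 Schwann cell and 5 skeletal muscle markers with probe sets gave no passing gene among 1, 1 and 2 tested. All 75 genes were found in the RefSeq gene table (GRCr8), which was used for names. Alternatives covered pseudocount, normalization, filter, averaged probe sets, variance model, array weights, the replicate number, the fluidics module and status, and each array left out.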

Additional observations from a re-analysis of the deposited data

Results flagged for a closer look

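Kcne1, which encodes a subunit of the slow delayed rectifier, read 4.22 on LacZ 1, far from the other LacZ arrays, which read 5.01 to 5.27. All of these values lie below the brightness limit of 5.797, and Kcne1 was not tested. This was the 1 such array among 56 groups of 5 values examined, and chance alone marks about 1 in 20 groups.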

How the results depend on the processing

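Against 7 lower Kcn genes, the count was 1 with the signals as deposited, 3 with the fluidics module as a factor, 4 with averaged probe sets, 13 within Completed and 0 within Started arrays, and 2 to 10 with an array left out. The share of all tested features called lower, 7.40% at first, was 0.467%, 5.55%, 6.03%, 19.5% and 0.0161% in the same order, and 2.88% to 11.5% with an array left out. A single LacZ array makes the Started counts uninformative, and the Completed counts rest on p38 4 and p38 5 as the only p38 arrays. Against 1 higher gene, the count was 0 with the dimmest 60% left out, where Kcnn4 was not tested, and 3 with array weights. It was 2 with the replicate number as a block, 2 with status as a factor, 5 within Completed arrays and 1 to 3 with an array left out. The share of all tested features called higher, 8.60% at first, was 11.3%, 14.1%, 8.97%, 10.4% and 16.6% in the same order. With an array left out that share was 3.72% to 12.4%. The cause of these shifts was not tested. With the block 8 were lower, beside 7.57% of all tested probe sets. Kcna2 (adjusted p = 0.0211) and, among the higher, Kcnk6 (0.0464) were the genes gained. Deviations of same-numbered arrays correlated at 0.08, 0.10, 0.04, -0.13 and 0.28, so the numbers were not taken to pair the samples, and not every array correlated best with its own number.

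Over 18 named tested genes and 26 other settings, 377 of 462 values kept their direction and side of the threshold, 55 lost a call, 18 gained one and 12 changed sign, none of them called. Within Started arrays the sign turned for Kcna2 (0.01), Kcne3 (-0.17), Kcnj8 (0.13), Kcnk2 (0.23), Kcnk6 (-0.08) and Kcnmb4 (-0.05). Kcnmb4 also turned with status (-0.02) or module (-0.03) as a factor and ran from -0.11 to 0.15 with an array left out.

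The ratio of Kcnip2 over Kcnd2 turned to -0.05 with a pseudocount of 64. That of Kcnj8 over Kcnj11 lost its unadjusted call with the signals as deposited (0.44), median centring (0.44) and cyclic loess (0.42), and was 0.33 to 0.55 with an array left out. That of Kcnj5 over Kcnj3 was 0.26 to 0.46 with an array left out, and had an unadjusted p of 0.0317 without LacZ 5 and without p38 3. With an array left out, Kcnip2 over Kcnd2 ran from 0.00 to 0.18 and Kcnd3 over Kcnd2 from 0.11 to 0.28. No other value of these 18 genes and 4 ratios changed direction. Dim signals, 43 of 75 genes, limit what could be tested.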
